A study of Homo sapiens with 4 samples.

Results

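The sestrins and the other brakes on mTORC1 were examined in HCT116, a human colon cancer cell line. The members are 9 genes, taken by name from the 20263 rows of the deposited count table: SESN1, SESN2, SESN3, DDIT4, DDIT4L, DEPTOR, TSC1, TSC2 and CASTOR1. All 9 had a row and all 9 were kept by the filter on low counts. One group of cells received 7A, a derivative of neratinib by the series title (neratinib inhibits ERBB family kinases), and the other received DMSO, the solvent. Both groups were grown in DMEM with 10% serum for 24 h of treatment, and each is represented by 2 libraries of 1 cell line. The labels do not state how much 7A was used. The members were selected on their measured CPM and fold changes between 7A and DMSO in these same libraries, so those values are given below as a description, without a test.

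mTORC1 is the kinase complex that drives protein synthesis and growth when nutrients and growth factors are plentiful, and it is switched on at the lysosome by Rag and Rheb GTPases. Sestrins hold it back when leucine is scarce, by binding the complex GATOR2, and CASTOR1 does the same for arginine. REDD1 (the product of DDIT4) acts through TSC1 and TSC2, whose complex turns Rheb off, while DEPTOR binds mTOR directly. SESN2 and DDIT4 are known targets of the stress factor ATF4, and SESN1 and SESN3 of FOXO factors.

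The upstream promoter sequences of the 5 members with the widest differences are shown first, so that those higher and those lower with 7A can be read side by side, and that of TSC2 is added as the partner of TSC1. Each is the 250 bases before the RefSeq transcription start on GRCh38.p14, 5′ to 3′ on the gene's own strand, and capitals mark every match to the motifs searched.
SESN2 (chr1:28259268-28259517, plus strand): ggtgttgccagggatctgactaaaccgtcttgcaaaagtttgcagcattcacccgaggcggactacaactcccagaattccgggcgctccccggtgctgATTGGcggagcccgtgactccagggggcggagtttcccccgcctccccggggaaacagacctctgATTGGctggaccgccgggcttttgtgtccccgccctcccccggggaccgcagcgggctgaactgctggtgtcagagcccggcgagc
DDIT4 (chr10:72273674-72273923, plus strand): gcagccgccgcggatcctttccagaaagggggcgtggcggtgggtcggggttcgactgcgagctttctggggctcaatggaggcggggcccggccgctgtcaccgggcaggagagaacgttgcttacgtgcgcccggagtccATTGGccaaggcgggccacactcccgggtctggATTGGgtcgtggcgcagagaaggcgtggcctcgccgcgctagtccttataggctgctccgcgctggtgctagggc
SESN3 (chr11:95232476-95232725, minus strand): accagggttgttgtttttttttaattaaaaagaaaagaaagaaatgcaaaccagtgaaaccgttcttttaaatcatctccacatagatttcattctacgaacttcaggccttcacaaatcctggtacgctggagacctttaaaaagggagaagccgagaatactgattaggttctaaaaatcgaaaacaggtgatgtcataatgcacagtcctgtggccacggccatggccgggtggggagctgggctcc
DDIT4L (chr4:100190469-100190718, minus strand): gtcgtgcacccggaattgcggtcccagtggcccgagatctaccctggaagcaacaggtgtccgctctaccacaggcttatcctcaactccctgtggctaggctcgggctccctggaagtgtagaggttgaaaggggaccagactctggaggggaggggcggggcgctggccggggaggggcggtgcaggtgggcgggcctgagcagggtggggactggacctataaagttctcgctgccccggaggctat
TSC1 (chr9:132944617-132944866, minus strand): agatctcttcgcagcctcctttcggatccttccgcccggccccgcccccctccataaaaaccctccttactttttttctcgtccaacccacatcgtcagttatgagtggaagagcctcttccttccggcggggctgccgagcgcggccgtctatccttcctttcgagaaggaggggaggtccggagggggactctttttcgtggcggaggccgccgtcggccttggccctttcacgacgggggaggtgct
TSC2 (chr16:2047735-2047984, plus strand): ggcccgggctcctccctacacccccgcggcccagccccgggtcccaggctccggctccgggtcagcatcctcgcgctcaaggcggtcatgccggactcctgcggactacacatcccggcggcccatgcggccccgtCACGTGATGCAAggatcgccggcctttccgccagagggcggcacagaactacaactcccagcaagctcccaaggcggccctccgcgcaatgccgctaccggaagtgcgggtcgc

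Both strands were searched for CCAAT (the NF-Y box), TGATGNAA (the CARE element that ATF4 binds), GTAAACA (a FOXO element) and CACGTG (an E-box). SESN2 held 2 NF-Y boxes in reverse orientation, at 151 and 86 bases before the start, and DDIT4 held 2 at 108 and 75 bases. The windows of SESN3, DDIT4L and TSC1 held none of the 4 motifs. Outside the sequences shown, an NF-Y box also lay in separate SESN1 windows, at 90 and 75 bases before their starts, and in CASTOR1 at 191 bases. Among all 35116 windows of the RefSeq table, 32% held at least 1 NF-Y box and 9.53% held at least 2. TSC2 carried a CARE match at 110 bases in the window shown, found in 3.14% of all windows, and it overlapped an E-box at 114 bases, found in 6.34%. Another TSC2 window, not shown, held none of the 4 motifs. A FOXO element, present in 2.98% of all windows, lay in no window of the 8 members searched. DEPTOR, on chromosome 8, was left out of this search. The SESN3 window was 42.8% G and C, against 65.6% for SESN2, 68.8% for DDIT4 and a median of 58% over all windows. The windows of DDIT4L and TSC1, at 65.2% and 62%, lay above that median. A low G and C content was thus particular to SESN3 and not shared by the other lower members shown. A match describes these letters only and is no evidence of binding.

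Library totals were 31120459 and 29769568 counts with DMSO and 49924044 and 61605005 with 7A. The smallest count of any member in any library was 182. Even numbers made up 63.9% to 64.9% of the genes with 1 to 20 counts in a library, and whether 1 count is 1 independent fragment was not tested. Of 9 colon epithelial markers, KRT8, KRT18, KRT19, EPCAM and CDH1 were at 58.8 CPM or more (CPM, counts scaled to library size), CDX2 was at 9.23 to 12.8 CPM, CDX1 was at 0 in all 4 libraries and VIL1 never passed 4 counts. KRT20 was nearly absent, at 0 and 0.245 CPM with DMSO and 1.10 and 0.887 CPM with 7A. The summed level of the 9 was 3667 to 4119 CPM with DMSO and 6903 to 7243 with 7A, mostly from KRT8, KRT18 and KRT19. CDX2 was lower in both 7A libraries and CDH1 was too (58.8 and 64.1 CPM against 76.8 and 67.7). Of 8 leukocyte, stromal and endothelial markers, CD3E, COL1A2 and DCN were at 0 and PTPRC reached 2 counts in 1 library. The sum of those 8 was 86.6 to 95.5 CPM with DMSO and 89.8 to 130 with 7A, nearly all from CD68 and COL1A1, which differed in opposite directions. CD68 was at 36.8 and 31.2 CPM in the DMSO libraries and at 55.8 and 91.4 CPM in the 7A libraries. COL1A1 was at 57.6 and 54.7 CPM in the DMSO libraries and at 33.7 and 38.6 CPM in the 7A libraries. The part of these marker levels in the results was not tested.

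The 3 sestrins moved apart: SESN2 was higher with 7A, SESN3 was much lower and SESN1 was slightly lower. Gene coordinates are GENCODE 29 on GRCh38. Values are CPM scaled by the trimmed mean of M values (TMM), and log2 fold changes of 7A over DMSO carry their standard error. SESN2 (ENSG00000130766, chromosome 1, 28259527 to 28282491, plus strand), the stress-induced leucine sensor, read 67.6 and 54.8 CPM with DMSO and 192 and 211 CPM with 7A. Both 7A libraries lay above both DMSO libraries, and the means of 61.2 ± 9.09 and 202 ± 13.4 (SD, n = 2) differ 3.30-fold. Between single libraries that ratio ran from 2.84 to 3.85, and the log2 fold change was 1.72 ± 0.15. As these are bulk libraries, more RNA per cell and more cells with the transcript cannot be told apart.

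SESN3 (ENSG00000149212, chromosome 11, 95165513 to 95232541, minus strand), the sestrin best known as a FOXO target, read 33.7 and 35.5 CPM with DMSO and 5.90 and 4.85 CPM with 7A. The 7A libraries were far below the DMSO libraries, which lay close together. The mean was 6.44-fold lower, with 5.72 to 7.32 between single libraries, at a log2 fold change of -2.69 ± 0.18, the 1.56 percentile of all tested genes. SESN1 (ENSG00000080546, chromosome 6, 108986437 to 109094819, minus strand), which also encodes a leucine-binding GATOR2 inhibitor, read 19.2 and 18.8 CPM with DMSO and 15.5 and 12.3 CPM with 7A. Its groups did not overlap, but the log2 fold change was small at -0.45 ± 0.18. It was -0.14 with a correction for GC content and transcript length, -0.72 with library totals alone and -0.30 without 7A replicate 2.

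Per transcript length, SESN2 was the main sestrin in both conditions and became nearly the only one with 7A. Levels between genes are compared here as CPM per kb of the principal transcript. SESN2 stood at 19.6 and 15.9 CPM per kb with DMSO, against 5.46 and 5.35 for SESN1 and 3.53 and 3.72 for SESN3. With 7A it stood at 55.7 and 61.2, against 4.41 and 3.49 for SESN1 and 0.618 and 0.508 for SESN3. SESN2 thus made up 68.5% and 63.6% of the summed sestrin level with DMSO and 91.7% and 93.9% with 7A. The share of SESN3 was 12.4% and 14.9% with DMSO and 1.02% and 0.779% with 7A. The sum of all 3 was 28.6 and 24.9 CPM per kb with DMSO and 60.7 and 65.2 with 7A. With merged exon lengths in place of the principal transcript, the share of SESN2 was 73.9% and 69.3% with DMSO and 94% and 95.5% with 7A.

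**Figure D1:**
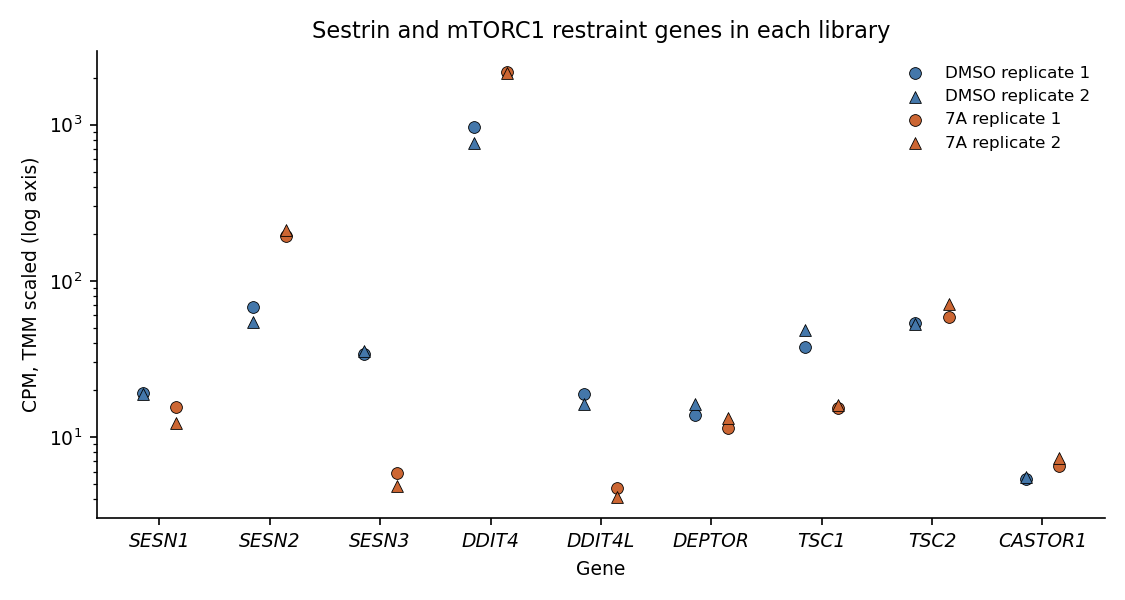
CPM (TMM scaled, log axis) of the 9 genes in the 4 libraries, with DMSO in blue, 7A in orange, circles for replicate 1 and triangles for replicate 2. SESN2 and DDIT4 are higher in both 7A libraries (192 and 211, and 2175 and 2151 CPM), and SESN3, DDIT4L and TSC1 are lower by more than the distance between replicates.

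The REDD pair split in the same way, with the abundant gene higher and its paralog lower. DDIT4 (ENSG00000168209, chromosome 10, 72273920 to 72276036, plus strand), which encodes REDD1, an inducer of the TSC complex under hypoxia and stress, read 959 and 769 CPM with DMSO and 2175 and 2151 CPM with 7A. The 7A libraries lay close together and above the DMSO libraries, which differed from each other more. The means were 864 ± 135 and 2163 ± 17.4 CPM (SD, n = 2), a ratio of 2.50 that ran from 2.24 to 2.83 between single libraries, with a log2 fold change of 1.32 ± 0.15. DDIT4 was already among the best expressed genes in DMSO, at the 99.2 percentile of tested genes per kb, and was at 99.6 with 7A.

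DDIT4L (ENSG00000145358, chromosome 4, 100185870 to 100190782, minus strand), which encodes the related mTORC1 inhibitor REDD2, read 18.8 and 16.3 CPM with DMSO and 4.71 and 4.15 CPM with 7A. Neither 7A library came near the DMSO range, and the mean was 3.96-fold lower, with 3.45 to 4.54 between single libraries. The log2 fold change was -1.99 ± 0.19. The ratio of DDIT4 to DDIT4L per kb, which does not depend on how libraries are scaled, went from 75.9 and 70.3 with DMSO to 687 and 773 with 7A. Such a ratio shows only that the 2 genes changed unequally.

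The TSC pair also came apart, through TSC1. TSC1 (ENSG00000165699, chromosome 9, 132891348 to 132946874, minus strand) encodes hamartin, which stabilises the complex, and read 37.6 and 48.4 CPM with DMSO and 15.4 and 16.1 CPM with 7A. The DMSO libraries differed from each other, but both stayed well above the 7A libraries. The mean was 2.73-fold lower, from 2.34 to 3.14 between single libraries, with a log2 fold change of -1.45 ± 0.17. Corrected for GC content and transcript length, the TSC1 value was -0.78.

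TSC2 (ENSG00000103197, chromosome 16, 2047465 to 2089487, plus strand) encodes tuberin, the subunit that makes Rheb hydrolyse its GTP, and read 53.9 and 52.9 CPM with DMSO and 58.9 and 71.0 CPM with 7A. Its groups did not overlap, yet the lower 7A library was close to the DMSO pair, and the log2 fold change of 0.28 ± 0.15 became 0.01 with library totals alone, 0.50 with the GC and length correction, 0.43 when 7A replicate 1 was removed and 0.14 when 7A replicate 2 was removed. TSC2 shares 778 exonic bases with PKD1 and 402 with NTHL1, both on the opposite strand. Before scaling to library size, NTHL1 had 571 and 437 counts with DMSO and 1340 and 1644 with 7A. PKD1 had 5190 and 4450 with DMSO and 4664 and 6297 with 7A. Whether counting used strand is not given, so reads from the shared stretches cannot be assigned with certainty, and their part in the TSC2 value was not tested. The same holds for the antisense genes annotated over 847 exonic bases of DDIT4, 363 of SESN1, 252 of DEPTOR, 93 of SESN3 and 42 of DDIT4L, and for 349 bases of TSC1 shared with GFI1B, which had 0 counts in every library. Per kb, TSC1 made up 33.3% and 39.5% of the TSC pair with DMSO and 15.8% and 13.9% with 7A. Merged exon lengths put those shares at 43.8% and 50.5%, and at 22.6% and 20.2%. The summed level of the pair, at 13.1 and 14.2 CPM per kb with DMSO and 11.3 and 13.4 with 7A, overlapped between the groups with principal transcript lengths. With merged exon lengths the sums were 4.88 and 5.45 with DMSO and 3.88 and 4.53 with 7A and did not overlap, so whether the pair as a whole was lower rests on the length used.

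**Figure D2:**
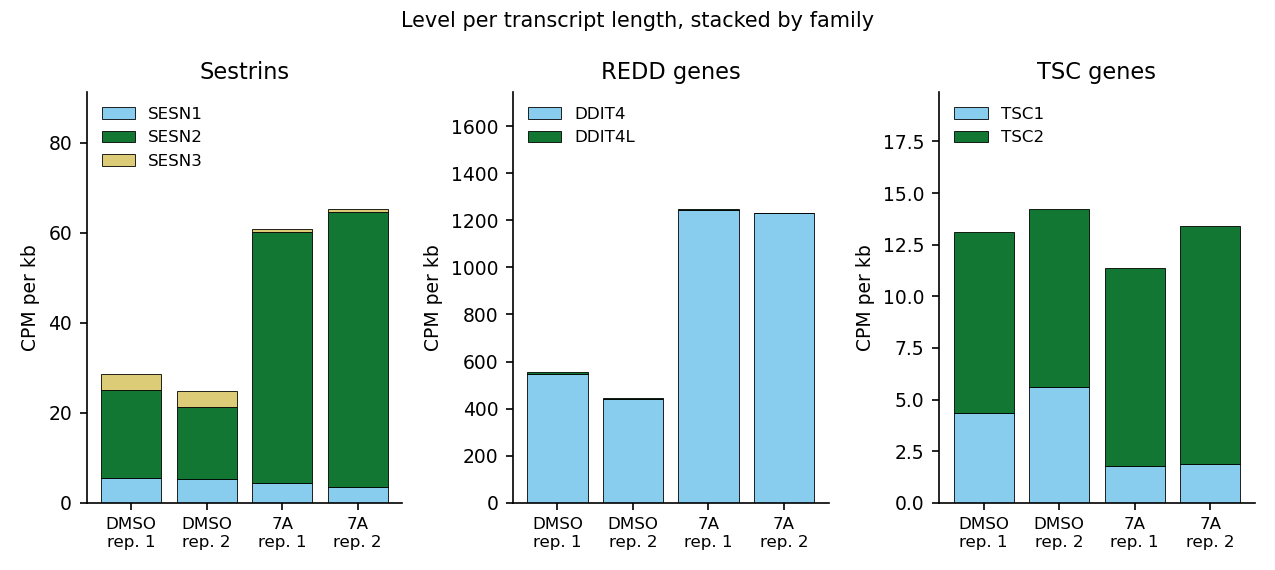
CPM per kb of principal transcript in each library, stacked by gene for the sestrins, the REDD pair and the TSC pair, each panel with its own axis from 0. SESN2 fills nearly the whole sestrin bar with 7A, DDIT4 fills the REDD bar in all 4 libraries, and TSC1 is smaller with 7A. The summed TSC levels overlap between the groups with these lengths but not with merged exon lengths.

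DEPTOR and CASTOR1, the members that act on mTOR itself and on arginine sensing, differed little. DEPTOR (ENSG00000155792, chromosome 8) read 13.8 and 16.1 CPM with DMSO and 11.5 and 13.3 CPM with 7A. The higher 7A library was just under the lower DMSO library, and the log2 fold change was -0.27 ± 0.18, which ranged from -0.08 with the GC and length correction to -0.54 with library totals alone. It was -0.15 without DMSO replicate 2 and also without 7A replicate 1. CASTOR1 (ENSG00000239282, chromosome 22, 30285117 to 30289627, minus strand) read 5.39 and 5.57 CPM with DMSO and 6.53 and 7.28 CPM with 7A. It was higher in both 7A libraries by a log2 fold change of 0.33 ± 0.19, which was 0.06 with library totals alone, 0.22 with upper-quartile scaling and 0.01 with the GC and length correction. Of its exonic bases, 1262 are shared with a second annotated gene on the same strand (ENSG00000248751), and how its reads were divided between both is unknown.

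Set in order, levels per kb in DMSO ran from DDIT4 at 494 ± 77.1 CPM per kb through SESN2 at 17.7 ± 2.63 and TSC2 at 8.66 ± 0.10 to DDIT4L, DEPTOR, SESN1 and TSC1 between 6.74 and 4.99, then SESN3 at 3.62 ± 0.13 and CASTOR1 at 3.38 ± 0.08. In that middle group each gene's 2 libraries overlapped those of its neighbour, so their order is not resolved. With 7A the order began again with DDIT4 at 1237 ± 9.95, SESN2 at 58.4 ± 3.88 and TSC2 at 10.5 ± 1.39. DEPTOR, CASTOR1 and SESN1 followed between 4.81 and 3.95, again without a resolved order between neighbours. TSC1 at 1.83 ± 0.05 and DDIT4L at 1.70 ± 0.15 overlapped, and SESN3 was last at 0.563 ± 0.08. The place of TSC2 right after SESN2 holds only for principal transcripts. Its merged exons span 19626 bases against 6164. With merged exons TSC2 lies below DDIT4L, DEPTOR, SESN1 and SESN3 with DMSO and below DEPTOR with 7A. The place of TSC1 (17600 against 8616 bases) rests on the length too.

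Over the 9 genes, 2 were called higher (SESN2, DDIT4) and 3 lower (SESN3, DDIT4L, TSC1) by the edgeR fit over all 14026 tested genes, and the same fit called 48.4% of all tested genes. The DMSO and 7A libraries did not overlap for any of the 9, as was the case for 78.4% of all tested genes. Since the members were chosen with these values known, nothing is read from either count. Library totals alone gave 2 higher and 5 lower among them, and the counts were 2 and 4 with upper-quartile scaling or the filter of 5 CPM, 3 and 4 without 7A replicate 1, and 3 and 3 with the GC and length correction. Their median log2 fold change was -0.27, beside -0.03 for all tested genes. Scaling by library totals alone shifted the median of all genes to -0.29 and left all 9 members with the sign they had under TMM. Leaving out any 1 library kept SESN3 between -2.81 and -2.56, DDIT4L between -2.08 and -1.87, TSC1 between -1.61 and -1.25, DDIT4 between 1.18 and 1.50 and SESN2 between 1.58 and 1.89. Principal transcripts ranged from 1623 bases in CASTOR1 to 9558 in SESN3, with 8616 in TSC1, and the correction for GC and length gave -1.94 for SESN3, -1.73 for DDIT4L, 1.07 for DDIT4 and 1.65 for SESN2.

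**Figure D3:**
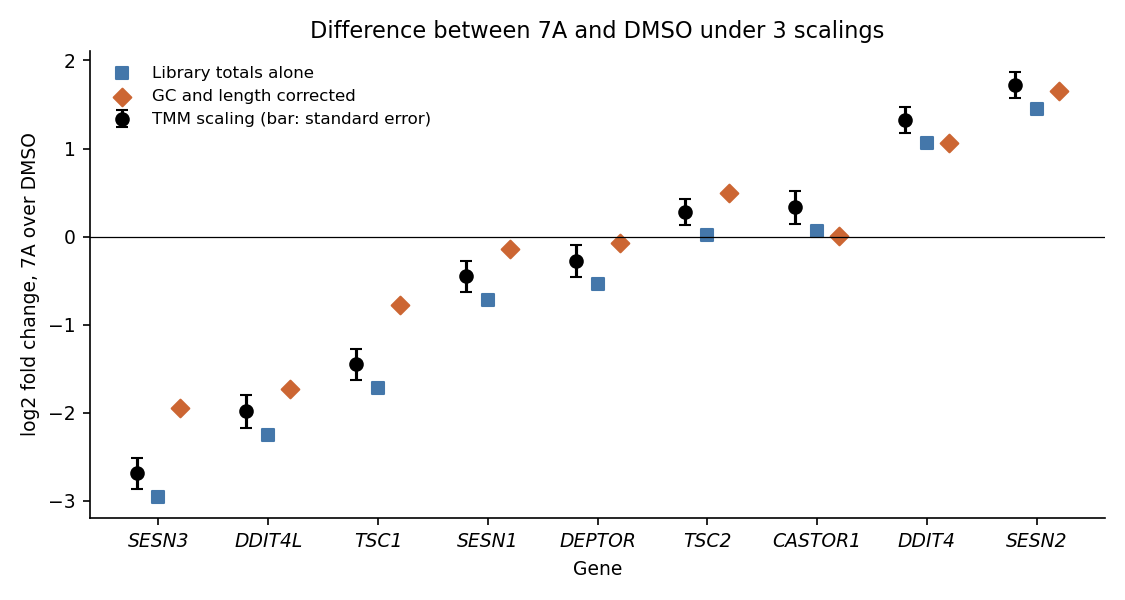
Log2 fold change of 7A over DMSO for the 9 genes under TMM scaling (black, with standard error), library totals alone (blue squares) and the GC and length correction (orange diamonds). SESN2 and DDIT4 stay above 1 and SESN3 and DDIT4L below -1.7 in all 3, while TSC1 moves from -1.45 to -0.78 with the correction.

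The genes whose profile over the 4 libraries was most like each sestrin were found by the distance between centred log2 CPM values, among 9754 other genes whose mean reached 10 CPM. For SESN1 they were KLHL9 (distance 0.02), PANK3 (0.02) and ATP8B1 (0.03). For SESN2 they were HDGF (0.06), DDX49 (0.06) and DVL1 (0.07), and HDGF read 208, 168, 565 and 628 CPM in DMSO replicates 1 and 2 and 7A replicates 1 and 2. SESN3 had no neighbour as close, the nearest being PAG1 (0.19), KAT6A (0.20) and ARID5B (0.37). With 4 libraries in 2 groups, such a likeness rests mostly on the size of the difference between groups.

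Around the members, 110 genes in 10 lists cover the rest of the pathway, and 107 of them were tested. Of these, 33 rose and 23 fell (edgeR, adjusted p under 0.05), beside 23.9% of all tested genes called higher and 24.6% called lower. The lists were chosen with earlier results of these data known, so their counts are a description. The balance depends on the scaling, since library totals alone gave 16 higher and 31 lower, and without DMSO replicate 2 the counts were 19 and 17. Their median log2 fold change was 0.07, beside -0.03 over all tested genes, and turned to -0.04 with upper-quartile scaling and -0.20 with library totals alone.

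Of 11 genes for mTORC1 and mTORC2 subunits and their assembly factors, 5 rose and 1 fell, with a median of 0.70 that was 0.39 with the filter of 5 CPM and 0.43 with library totals alone. TELO2, which helps assemble mTOR, rose by 1.40 ± 0.16, from 18.0 to 47.5 CPM (adjusted p = 0.000988, edgeR), and AKT1S1, which encodes the mTORC1 inhibitor PRAS40, rose by 0.96 ± 0.15, from 59.0 to 115 CPM (adjusted p = 0.00229, edgeR). RICTOR, the scaffold of mTORC2, fell by 1.38 on the log2 scale, from 77.6 to 29.8 CPM, with an edgeR adjusted p of 0.0044 that became 0.0587 without 7A replicate 2. The GC and length correction put RICTOR at -0.66. MTOR, the kinase itself, was singled out after its values were seen. It read 67.6 and 76.4 CPM with DMSO and 73.8 and 70.5 CPM with 7A, and the groups overlapped (adjusted p = 0.988, edgeR). After the GC and length correction MTOR was higher by 0.56 (adjusted p = 0.00917, edgeR).

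The lysosomal switch that sestrins act on showed both directions. Of 16 Rag, Ragulator and Rheb genes, 2 rose and 5 fell (3 lower without DMSO replicate 1, DMSO replicate 2 or 7A replicate 2), with a median of -0.01. LAMTOR1, the Ragulator subunit that anchors Rags to the lysosome, rose by 1.44 ± 0.23, reading 28.9 and 27.0 CPM in the DMSO libraries and 92.6 and 59.4 CPM in the 7A libraries (adjusted p = 0.0035, edgeR). RHEB, the GTPase that activates mTORC1 and the target of the TSC complex, rose by 0.92 ± 0.13, from 90.9 to 172 CPM (adjusted p = 0.0018, edgeR). FLCN, which activates RagC and RagD, fell by 1.54 on the log2 scale, from 32.8 to 11.2 CPM (adjusted p = 0.000779, edgeR). Its partner FNIP2 fell from 9.55 to 3.38 CPM (adjusted p = 0.00132, edgeR), at a corrected log2 value of -0.81 for GC and length.

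Between sestrins and the Rags stand GATOR2 and GATOR1. Of 5 GATOR2 genes, whose products sestrins bind, 1 was called by edgeR, 2 by DESeq2 and 3 after the GC and length correction, all of them higher. SEC13 rose by 0.64 ± 0.12 (82.2 to 128 CPM, adjusted p = 0.0053, edgeR) and the other 4 did not pass, SEH1L being nearest at 0.39 (adjusted p = 0.0644, edgeR). SEC13 was at 0.34 with the GC and length correction and 0.37 with library totals alone. Of 7 GATOR1 and KICSTOR genes, which turn the Rags off, 3 rose and 0 fell by edgeR (0 lower by DESeq2, 1 at an unadjusted p under 0.05), with a median of 0.06. Library totals alone gave 1 higher and 2 lower (median -0.21), upper-quartile scaling 3 and 1 (median -0.06), the filter of 5 CPM 3 and 1 (median -0.03), and the GC and length correction 2 and 1. NPRL3 rose by 0.68 ± 0.15, but missed the threshold when either DMSO library was removed (edgeR adjusted p 0.0535 and 0.0551), and it was at 0.41 with library totals alone. ITFG2 rose by 0.86 ± 0.22, but missed the threshold when DMSO replicate 2 or 7A replicate 2 was removed (edgeR adjusted p 0.094 and 0.0771) and with library totals alone (0.0528). The GATOR1 and KICSTOR counts were 1 higher without DMSO replicate 1, 0 higher without DMSO replicate 2, and 1 higher and 2 lower without 7A replicate 2.

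Of 5 other amino acid sensor genes, 3 fell and 0 rose (0 higher also at an unadjusted p under 0.05 and by DESeq2), with a median of -0.69. After the GC and length correction 1 was higher and 2 were lower, with a median of -0.07. CASTOR2, the paralog of CASTOR1, fell from 7.47 to 2.73 CPM (adjusted p = 0.00269, edgeR). BMT2, which encodes the S-adenosylmethionine sensor SAMTOR, fell by 1.15, from 20.7 to 9.29 CPM (adjusted p = 0.00221, edgeR). Of 10 AMPK and LKB1 genes tested, 1 rose and 2 fell, or 1 fell when either DMSO library was removed. PRKAA2, a catalytic subunit of the energy sensor AMPK, fell by 1.51, from 24.7 to 8.69 CPM (adjusted p = 0.00101, edgeR), or -0.86 after the correction for GC and length. PRKAB2 fell by 0.50, which missed the threshold when either DMSO library was removed (edgeR adjusted p 0.113 and 0.0847) and turned to 0.06 by the GC and length correction. CAMKK2 rose by 0.43 with an adjusted p of 0.0437 in edgeR, and that call was lost when any 1 library was left out (0.0682 to 0.286). CAMKK2 was at 0.16 with library totals alone and 0.72 with the GC and length correction, and PRKAB2 at -0.77 with library totals alone. With all 4 libraries, CAMKK2 also missed the threshold with the replicate block (edgeR adjusted p 0.0807), upper-quartile scaling (0.111), library totals alone (0.379) and the filter of 5 CPM (0.081). It passed with DESeq2, RLE scaling, no filter and the GC and length correction.

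Upstream of the TSC complex, of 12 genes of PI3K and AKT signalling, 2 rose and 5 fell, with a median of -0.40. The GC and length correction turned this to 4 higher and 2 lower, with a median of 0.23. INPP4B, a phosphatase that opposes PI3K, fell by 1.65, from 25.0 to 7.97 CPM (adjusted p = 0.00212, edgeR), and PDPK1, the kinase that activates AKT, fell by 1.30, from 77.1 to 31.3 CPM (adjusted p = 0.000945, edgeR). With the GC and length correction INPP4B was at -0.92 and PDPK1 at -0.83. AKT1 rose by 0.57 and PIK3R2 by 0.54 (0.30 and 0.27 with library totals alone). The AKT1 call did not survive the removal of DMSO replicate 2 (adjusted p = 0.064, edgeR) or scaling by library totals (0.0645), and that of PIK3R2 did not survive the removal of DMSO replicate 1, DMSO replicate 2 or 7A replicate 2 (edgeR adjusted p 0.0755, 0.0733 and 0.0511). Without DMSO replicate 1 or 7A replicate 2, 1 of the 12 was higher, and with library totals alone PIK3R2 missed the threshold too (adjusted p = 0.11, edgeR).

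Downstream, of 18 genes for mTORC1 substrates and effectors, 6 rose and 4 fell, with a median of 0.06 (-0.05 with upper-quartile scaling). Library totals alone gave 2 higher and 5 lower (median -0.20), and the GC and length correction gave 6 and 2. Without DMSO replicate 2, 3 were higher. EIF4EBP1, the translation repressor that mTORC1 inactivates and a known ATF4 target, rose by 1.49 ± 0.18, from 68.4 to 192 CPM (adjusted p = 0.00133, edgeR). TFE3, a lysosomal transcription factor that mTORC1 keeps out of the nucleus, rose by 0.75 ± 0.15, from 75.3 to 127 CPM (adjusted p = 0.00627, edgeR). RPS6KB1, which encodes S6 kinase, fell by 1.18, from 72.5 to 31.9 CPM (adjusted p = 0.00102, edgeR), and EEF2K, which brakes translation elongation, fell by 1.02, from 60.6 to 29.8 CPM (adjusted p = 0.00158, edgeR). With the GC and length correction RPS6KB1 was at -0.74 and EEF2K at -0.50, and with library totals alone TFE3 was at 0.48.

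Among 13 tested genes for transcription factors listed as acting on sestrins or REDD1, 5 rose and 3 fell. The number higher was 3 without 7A replicate 1 or without 7A replicate 2, and library totals alone gave 3 higher and 4 lower. JUN rose by 1.69 ± 0.15, from 134 to 431 CPM (adjusted p = 0.000692, edgeR), and CEBPB by 1.17 ± 0.12, from 90.3 to 203 CPM (adjusted p = 0.000853, edgeR). FOXO1 fell by 1.24 (adjusted p = 0.00133, edgeR), and was at -0.74 after the GC and length correction. It read 25.7 and 26.5 CPM in the DMSO libraries and 11.7 and 10.4 CPM in the 7A libraries. FOXO3 and FOXO4 were singled out after their values were seen, and neither was called. The FOXO3 mean was 174 CPM with DMSO and 178 with 7A, a log2 fold change of 0.03 (adjusted p = 0.866, edgeR). FOXO4 was at -0.42 (adjusted p = 0.0872, edgeR). NR3C1, the glucocorticoid receptor, fell from 33.3 to 16.6 CPM (adjusted p = 0.00273, edgeR), and was at -0.32 after the GC and length correction (adjusted p = 0.0552, edgeR). ATF4 was singled out after its values were seen. It rose by 1.30 ± 0.18, reading 587 and 545 CPM in the DMSO libraries and 1162 and 1627 CPM in the 7A libraries (adjusted p = 0.00196, edgeR).

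Of 10 tested partners of sestrins in redox control, 8 rose and 0 fell by edgeR, with a median of 0.58 that was 0.31 with library totals alone and 0.38 with the GC and length correction. DESeq2 and an unadjusted p under 0.05 also gave 0 lower. The peroxiredoxin genes PRDX3 and PRDX2, whose products remove peroxides, rose by 0.71 ± 0.13 (213 to 348 CPM, adjusted p = 0.00463, edgeR) and 0.65 ± 0.12 (175 to 275 CPM, adjusted p = 0.00421, edgeR). The number higher was 2 with library totals alone, 3 without DMSO replicate 2 and 5 with the GC and length correction, under which PRDX2 was at 0.21 (adjusted p = 0.108, edgeR). With library totals alone PRDX3 was at 0.44 and PRDX2 at 0.38.

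**Figure D4:**
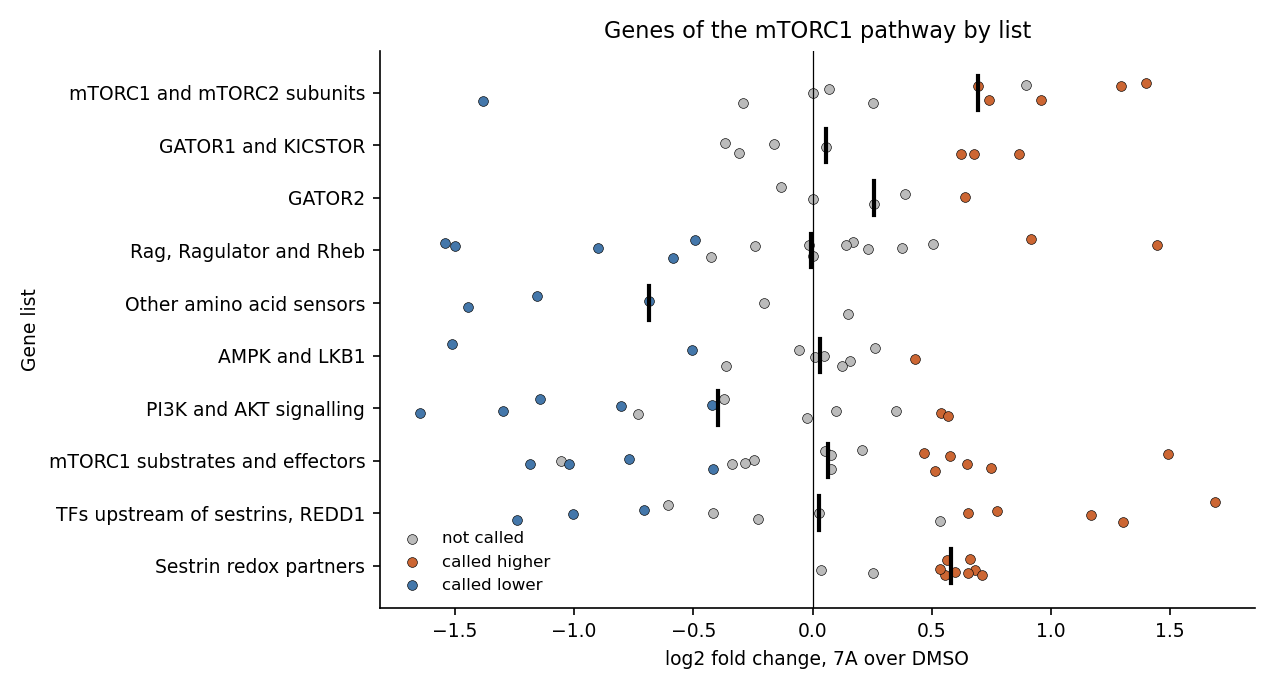
Log2 fold change of 7A over DMSO for the 107 tested pathway genes by list, with orange for genes called higher, blue for genes called lower, grey for the others and a black bar at each list's median (vertical scatter is for display). All tested redox partners lie to the right of 0, with a median of 0.58, and every other list spreads to both sides.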

How the data were processed

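RNA from HCT116 cells was made into libraries with a dual-mode mRNA kit, per the labels' protocols. The authors deposited 1 table of raw counts; the unit follows from its title and its whole numbers, whose totals differ between libraries. The builds hg38, mm10 and GRCm38 are named together in the submitters' processing notes; aligner and counter: not given in the sources used here. Every identifier is human, and 20148 of 20263 had a symbol. Coordinates and lengths come from GENCODE 29 on GRCh38, promoters from RefSeq on GRCh38.p14. Per-kb levels and the GC and length correction use each gene's principal coding transcript.

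Counts went through filterByExpr (minimum count 10), TMM scaling and the robust quasi-likelihood F test of edgeR 4.0.16 (R 4.3.3) and Benjamini-Hochberg adjustment over 14026 genes at 0.05, with the 2 groups and no covariate. The standard error is the log2 fold change over the square root of F. The GC and length correction first subtracts each gene's mean log2 CPM over all libraries (prior count 2). It then fits splines with 5 degrees of freedom to these deviations in each library. Simulated counts with 200 changed genes were used to test the edgeR fit without this correction. The correction itself was tested on separate simulated counts with a GC and length trend and no changed gene. Other alternatives were DESeq2 1.42.0, RLE, upper-quartile and total-count scaling, no filter, 5 CPM in 2 libraries, a replicate block and each library left out. Plots were drawn with matplotlib 3.10.9 under Python 3.11.15.

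The members and lists were chosen with earlier results of these data known. Named pathway genes are up to 2 called genes per list and direction with the smallest adjusted p. MTOR, ATF4, FOXO3 and FOXO4 were added later. Some listed genes are counted but not reported here by name. The 2 libraries of a group differed by more than sampling noise, with a chi-square of 33.1 (DMSO) and 72.4 (7A) for each degree of freedom. Separate cultures are not stated, so a p-value reflects only the spread of these libraries, possibly technical. An exact permutation test of 2 against 2 reaches 0.333 at the lowest.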

Additional observations from a re-analysis of the deposited data

How the results depend on the processing

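The directions of SESN2, DDIT4, SESN3, DDIT4L and TSC1 were the same in all 12 alternatives. With library totals alone, 1951 genes of the whole table were higher and 4934 lower, and 16 pathway genes were higher and 31 lower. Leaving out 1 library at a time gave 1925 to 3054 genes higher and 1939 to 2619 lower over the whole table (lowest without DMSO replicate 2), and 19 to 29 pathway genes higher and 17 to 22 lower. MTOR was at -0.11 with upper-quartile scaling, -0.26 with library totals, -0.082 with the filter of 5 CPM, and between -0.074 and 0.099 with 1 library left out (-0.074 without DMSO replicate 1, -0.0088 without 7A replicate 1). The GC and length correction gave 4123 genes higher and 2666 lower over the whole table and 38 and 16 in the pathway, and put PRKAB2 at 0.056; the cause was not tested. Same-numbered replicates did not deviate together over genes as a whole (correlation -0.0953, 2 pairs). With 2 libraries in each group this is a single correlation, so it cannot show whether same-numbered libraries share a culture or batch. With the replicate block, 3029 genes were higher and 3187 lower, and 32 and 20 of the pathway genes. At this number of libraries small differences such as those of SESN1, DEPTOR, TSC2 and CASTOR1 are the least certain.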
